A study of Mus musculus with 12 samples.

Results

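Matrix metalloproteinases and their tissue inhibitors were followed across normal intestine and tumors of Min/+ mice, which carry 1 mutant copy of the tumor suppressor gene Apc and form intestinal adenomas. The set holds 10 genes, the 7 metalloproteinases Mmp2, Mmp3, Mmp7, Mmp9, Mmp12, Mmp13 and Mmp14 and the 3 inhibitors Timp1, Timp2 and Timp3. Members were all probe sets that the annotation of the Affymetrix MG_U74Av2 array gives to 1 of these symbols, which made 16 of the 12422 probe sets that are not controls and 10 of the 8251 genes named on the array. Timp2 had 3 probe sets, Mmp2, Mmp9, Mmp12 and Timp1 had 2 each, and the other members had 1.

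Total RNA from 6 samples of normal intestine and 6 of tumor was hybridised to 12 arrays. All mice were male, 91 days old and Min/+, so no array shows intestine without the Apc mutation. Each tissue held every combination of the Dnmt genotypes Dnmt+/- and Dnmt+/+ with diet #1, diet #2 and diet #3, with 1 array per combination. The labels give neither the contents of the diets nor which Dnmt gene was mutated. They also do not say how many tumors or mice were behind a sample. A tumor sample and a normal sample of the same diet and genotype carried the same sample code. P-values therefore measure the spread between these arrays, which may in part be technical, and the number of arrays limits the precision.

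Matrix metalloproteinases are zinc-dependent endopeptidases, made as inactive proenzymes, that cleave collagens, laminins, proteoglycans and also cytokines and cell surface proteins. Most are secreted, while Mmp14 is anchored in the plasma membrane and activates pro-Mmp2. The tissue inhibitors of metalloproteinases bind the active site of the mature enzymes, and Timp2 also takes part in the activation of pro-Mmp2 at the cell surface. In the intestine stromal and inflammatory cells make most of these enzymes, and in the mouse small intestine Paneth cells make Mmp7, which processes alpha-defensins. Transcription of several metalloproteinase genes is known to respond to AP-1, the dimer of Jun and Fos proteins.

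Promoters are shown because Mmp7, Mmp12 and Mmp13, which lie in 1 cluster on chromosome 9, rose together in tumors. RefSeq start sites of assembly GRCm38.p6 were found for 8 of the 10 members, in 10 windows, and Mmp2 and Mmp9 were not listed. The 250 bases before each start were searched on both strands for TGANTCA, the AP-1 site. They were also searched for the TATA box TATAAA, the GC box GGGCGG and the TCF site CTTTGAT. The AP-1 letters stood upstream of Mmp3, Mmp7, Mmp12 and Mmp13, and not in the windows of Mmp14, Timp1, Timp2 and Timp3. Among all 32851 promoter windows of that length, 6.75% held them. In Mmp12 the match lay before 1 of its 2 annotated starts, and Mmp7 likewise had it before 1 of 2. A GC box was found before Mmp14, Timp1, Timp2 and Timp3 and before none of the chromosome 9 members, against 32.7% of all windows. TATAAA stood before Mmp3, Mmp7 and Mmp13, against 12.4% of windows, and the TCF letters before the other start of Mmp7, against 3.21%. The last 120 bases before the start follow for the 4 promoters with the AP-1 letters and for Mmp14. Capitals mark TGANTCA in the first 4 and the pair of adjoining GC boxes in Mmp14. All are on the plus strand of GRCm38.p6, at chr9:7272394-7272513 for Mmp13, chr9:7347254-7347373 for Mmp12, chr9:7445702-7445821 for Mmp3, chr9:7691970-7692089 for Mmp7 and chr14:54431478-54431597 for Mmp14.
Mmp13: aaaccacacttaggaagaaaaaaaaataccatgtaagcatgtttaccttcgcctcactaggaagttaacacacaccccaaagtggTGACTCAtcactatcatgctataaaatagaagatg
Mmp12: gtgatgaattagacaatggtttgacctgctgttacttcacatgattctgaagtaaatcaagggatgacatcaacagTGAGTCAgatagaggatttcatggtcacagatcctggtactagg
Mmp3: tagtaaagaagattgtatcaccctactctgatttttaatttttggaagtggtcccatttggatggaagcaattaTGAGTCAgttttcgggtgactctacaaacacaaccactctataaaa
Mmp7: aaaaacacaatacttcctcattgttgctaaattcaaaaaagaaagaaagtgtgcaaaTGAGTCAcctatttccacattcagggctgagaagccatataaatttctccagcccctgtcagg
Mmp14: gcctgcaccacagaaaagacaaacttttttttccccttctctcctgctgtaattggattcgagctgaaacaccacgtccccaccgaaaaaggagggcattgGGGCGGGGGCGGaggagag

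The AP-1 letters began 35 bases before the start of Mmp13, 44 before Mmp12, 46 before Mmp3 and 63 before Mmp7. Mmp13 had TGACTCA and the other three TGAGTCA. A match describes the letters of the window and does not show that a factor binds there.

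**Figure D1:**
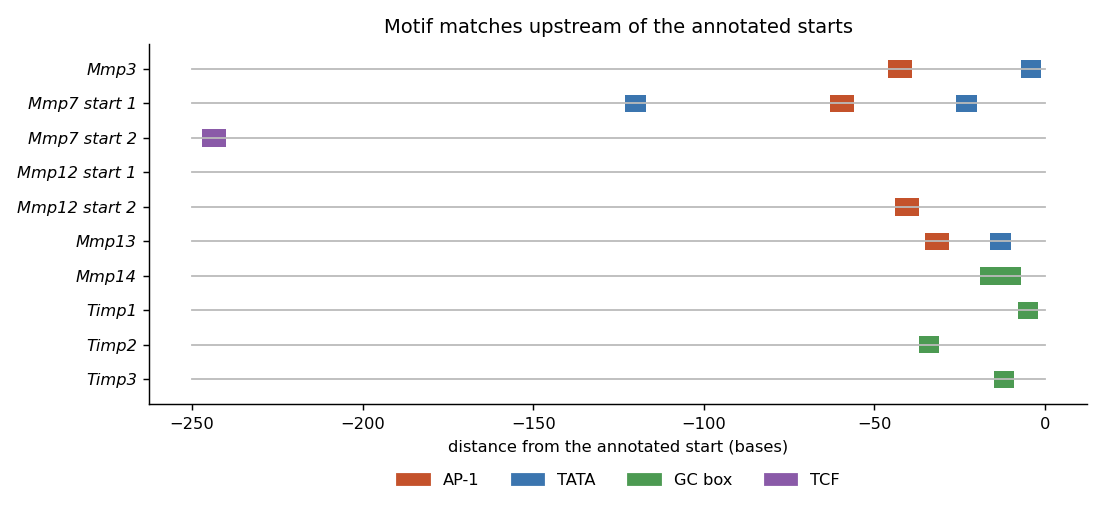
Each line is the 250 bases before an annotated start of a member, with the distance from the start in bases on the horizontal axis, and coloured boxes mark motif matches on either strand. The AP-1 letters lie 29 to 63 bases before the starts of Mmp3, Mmp7, Mmp12 and Mmp13, and GC boxes before Mmp14 and the 3 inhibitors.

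The arrays came in a pair of formats. On diet #1 the deposited intensities had means of 306 to 403 and 40.9% to 46.0% of values stood at exactly 50, a floor in the file. On diets #2 and #3 every array had a mean of 1000 and no such floor. Diet #1 and its format cannot be told apart, but every diet held both tissues in both genotypes. The normal arrays of diet #2 stood apart through genes of the exocrine pancreas, with a summed normalized intensity of 179153 to 194077 over 7 genes, against 2482 to 5390 on the other 10 arrays. All 12 arrays carried intestinal epithelial markers, summed over 13 genes. These sums were lowest on the normal arrays of diet #2, at 99550 and 108432, against 127112 to 152553 on the other 10 arrays. Deposited intensities are given below as they stand in the file, and differences, SEs and tests are on the log2 scale after quantile normalization.

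Tumor was compared with normal intestine first. Mmp7, Mmp9, Mmp12, Mmp13 and Mmp14 were higher in tumors, by 1.90-fold for Mmp14 up to 4.72-fold for Mmp7, and each was higher in tumor in 6 of 6 code pairs. Timp1, Timp2 and Timp3 did not pass the test. Of the 10 members, 8 had a probe set bright enough to be tested, and 5 of these 8 were called higher and 0 lower at a limma adjusted p under 0.05. Among all 6400 features tested, 18.2% were called higher and 16.9% lower, 35.2% in all. Mmp9 and Mmp12 passed the brightness filter only through their tumor arrays, since their normal means of 6.61 and 6.57 lay under the log2 limit of 6.64. The count is therefore a description. Among the 8 members tested, the 6 tumor arrays lay above all 6 normal arrays for Mmp7, Mmp13 and Mmp14. This arrangement was found for 6.17% of all features, and the opposite one for 5.06%. In whole tissue RNA, more cells of a type and more RNA per cell cannot be told apart.

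**Figure D2:**
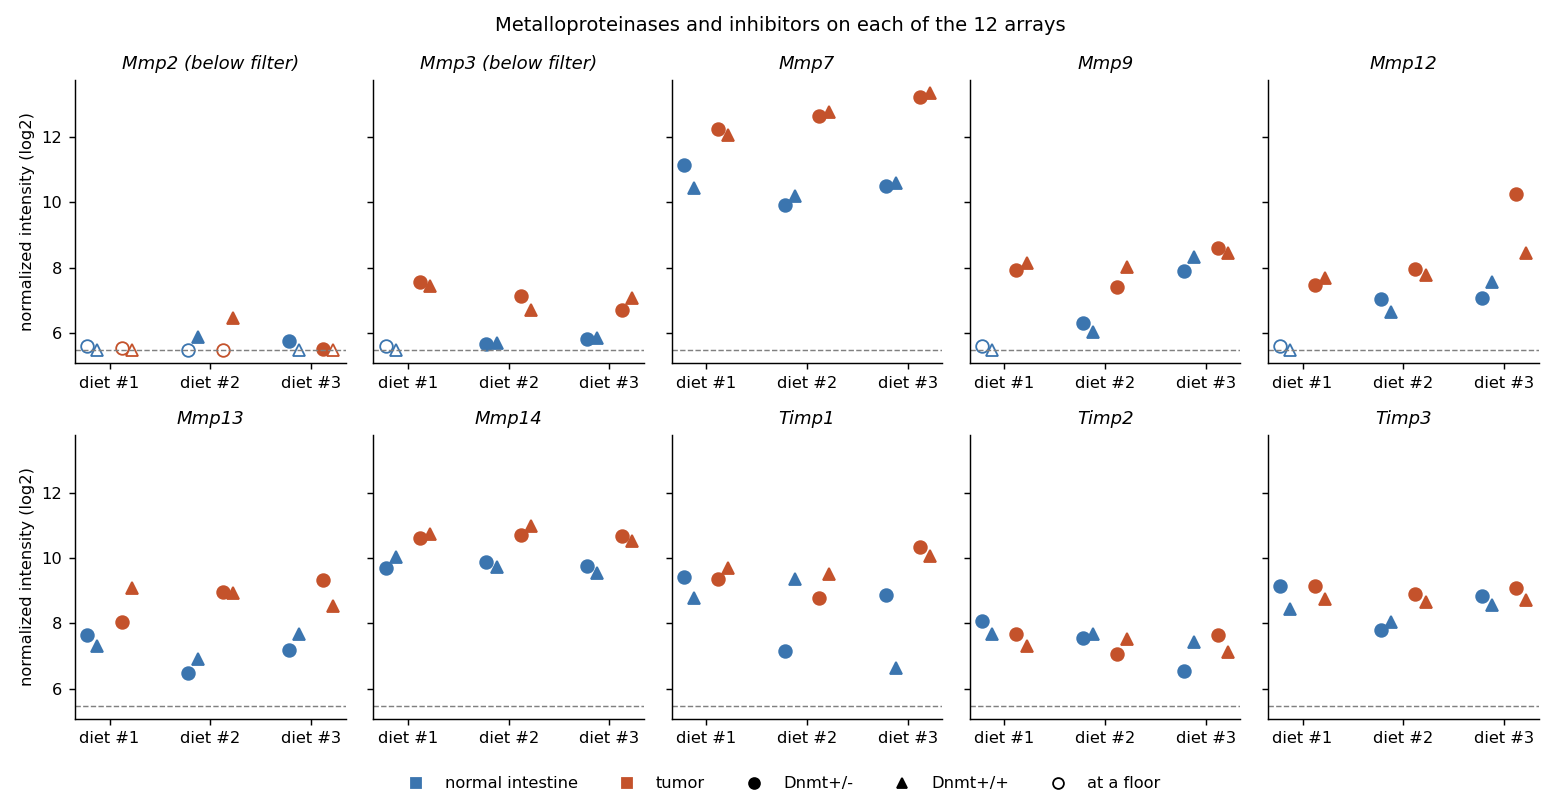
Normalized log2 intensity of the 10 members on each of the 12 arrays, by diet, with normal intestine in blue and tumor in red, Dnmt+/- as circles and Dnmt+/+ as triangles. Open symbols are values at the floor of the file or of the normalization, and the dashed line is the normalization floor of 5.48. Mmp7, Mmp13 and Mmp14, and also Mmp3, which lay under the brightness filter, show tumor arrays above every normal array. The tumor and normal arrays of Timp1, Timp2 and Timp3 overlap.

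Mmp14, the membrane-anchored collagenase that activates pro-Mmp2, had the smallest spread among the members tested. In normal intestine its deposited intensity was 316 and 518 on diet #1, 1149 and 1008 on diet #2, and 1047 and 901 on diet #3, with the Dnmt+/- sample first in each pair. The tumors of the same diets gave 586 and 840, then 2185 and 2614, then 2056 and 1867. Within each diet both tumors were brighter than both normal samples. After normalization the level was 9.78 ± 0.17 in normal intestine and 10.70 ± 0.16 in tumors (log2, SD, n = 6 each). The difference was 0.92 ± 0.10 (SE), or 1.90-fold, with a limma adjusted p of 0.00018. Within diets #1, #2 and #3 it was 0.80, 1.03 and 0.94.

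Mmp2, gelatinase A, which Mmp14 activates, stood at or near a floor on most arrays. On diet #1 both of its probe sets stood at the file floor of 50 on all 4 arrays. On diets #2 and #3 the brighter probe set ranged from 9.33 to 118 and the other from 5.39 to 27.8. The brighter one was at a floor on 8 of 12 arrays and the other on all 12, so Mmp2 was not tested.

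Mmp9, gelatinase B, an enzyme of neutrophils and macrophages that cleaves type IV collagen, rose in tumors from a normal level that differed between samples. On diet #1 the normal samples stood at the floor of 50 and the tumors at 97.1 and 148. Normal samples gave 84.0 and 62.0 on diet #2 and 282 and 368 on diet #3. Tumors gave 246 and 378 on diet #2 and 520 and 460 on diet #3. The diet #3 normal samples were as bright as several tumors, so the groups overlapped, although each tumor exceeded its own normal sample. The tissue difference was 1.49 ± 0.30 (log2, SE, n = 6 each), or 2.80-fold, with a limma adjusted p of 0.00471. Within diets it was 2.49, 1.54 and 0.42, of which the first rests on normal values at the floor. Without diet #2 the difference was 1.30 and missed the threshold, with a limma adjusted p of 0.0522. With the floor at the 40th percentile it was 0.96 and with median scaling 1.06, and both passed. The probe set passed the brightness filter only through its tumor arrays. With no filter and all 12422 probe sets tested, its limma adjusted p was 0.0114. A second Mmp9 probe set stayed at or under 57.9 on every array.

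Mmp3, stromelysin 1, a stromal enzyme that also activates other proenzymes, lay under the brightness filter and was not part of the main test. Its normal values were 50 and 50 on diet #1, 45.7 and 44.4 on diet #2, and 60.9 and 58.8 on diet #3. Its tumor values were 73.4 and 87.7, then 201 and 150, then 152 and 177. All 6 tumors lay above all 6 normal samples, and the normal samples were at or close to the floor. With no filter and all 12422 probe sets tested, the difference was 1.41 ± 0.16 (log2, SE), with a limma adjusted p of 0.000541. Its size depends on the floor.

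Mmp7, matrilysin, which unlike most of the family is made by epithelial cells, differed most among the members tested. Deposited intensities in normal intestine were 840 and 685 on diet #1, 1194 and 1401 on diet #2, and 1838 and 2025 on diet #3. In tumors they were 1655 and 1987, then 7517 and 8256, then 11469 and 13398. The dimmest tumor of each diet was thus brighter than both of its normal samples, and diets #2 and #3 had the wider gaps. The normalized level was 10.47 ± 0.41 in normal intestine and 12.71 ± 0.52 in tumors (log2, SD, n = 6 each). The difference was 2.24 ± 0.24 (SE), or 4.72-fold, with a limma adjusted p of 0.000153. Within diets the difference was 1.35, 2.64 and 2.73. Without diet #2, whose normal arrays had the lowest normalized levels, it was 2.04 (limma adjusted p = 0.00871). Genes known from Paneth cells moved the same way. Pla2g2a, a secreted phospholipase, was 18.3-fold higher and Mptx1, a pentraxin, 6.18-fold higher. Itln1 was 1.32-fold higher and was not called (limma adjusted p = 0.081). Of the 16 genes of that marker list, 4 were on the array and 3 were tested. Among these 3 genes, 2 were called higher, against 18.2% of all features. The summed level of the 4 genes on the array ranged from 11732 to 26335 in normal intestine and from 22863 to 31029 in tumors. The part of Paneth cells in the Mmp7 difference was not tested.

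Mmp12, macrophage metalloelastase, which cleaves elastin, was measured by a pair of probe sets that disagreed. The brighter one gave normal values of 50 and 50 on diet #1, 155 and 108 on diet #2, and 165 and 218 on diet #3. Its tumor values were 68.9 and 104, then 363 and 323, then 1570 and 459. Each tumor exceeded its own normal sample, and the Dnmt+/- tumor of diet #3 stood far above the other tumors. The tissue difference was 1.70 ± 0.29 (log2, SE, n = 6 each), or 3.25-fold, with a limma adjusted p of 0.00195. Without that tumor it was 1.43, with a limma adjusted p of 0.00146. With median scaling it was 1.21 and with the floor at the 40th percentile 1.33, and both passed. This probe set passed the brightness filter only through its tumor arrays. With no filter and all 12422 probe sets tested, its limma adjusted p was 0.00497. The dimmer probe set had a difference of 0.29 ± 0.32 (limma adjusted p = 0.622 with no filter), and was higher in tumor in 3 code pairs, lower in 2 and at the floor in both tissues of 1.

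Macrophage and neutrophil markers are set beside Mmp9 and Mmp12, since macrophages are a known source of both and neutrophils of Mmp9. Of 10 macrophage markers tested, Cd14, a coreceptor for lipopolysaccharide, was higher in tumors by 0.90 (log2). Csf1r, Cd68 and Fcgr1 were lower, by differences of -0.53, -0.42 and -0.35. The summed macrophage list of 13 genes ranged from 6666 to 11197 in normal intestine and from 5761 to 8153 in tumors. Of 5 neutrophil markers tested, Ly6g and Ltf rose by 1.35 and 1.16 and were called. Csf3r (0.31), Camp (0.093) and Elane (-0.31, log2) were not called, and Elane was lower in 6 of 6 code pairs. Ngp and Mmp8 stood at the floor on all 12 arrays. Among all 6400 features 18.2% were called higher in tumors and 16.9% lower. The neutrophil sum of 11 genes ranged from 1335 to 1839 in normal intestine and from 1655 to 2786 in tumors. Within each diet both tumors lay above both normal samples, at 1849 and 2042 against 1775 and 1839 on diet #1, 1820 and 2006 against 1531 and 1682 on diet #2, and 1655 and 2786 against 1335 and 1363 on diet #3. The part of these cells in the Mmp9 and Mmp12 differences was not tested.

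**Figure D3:**
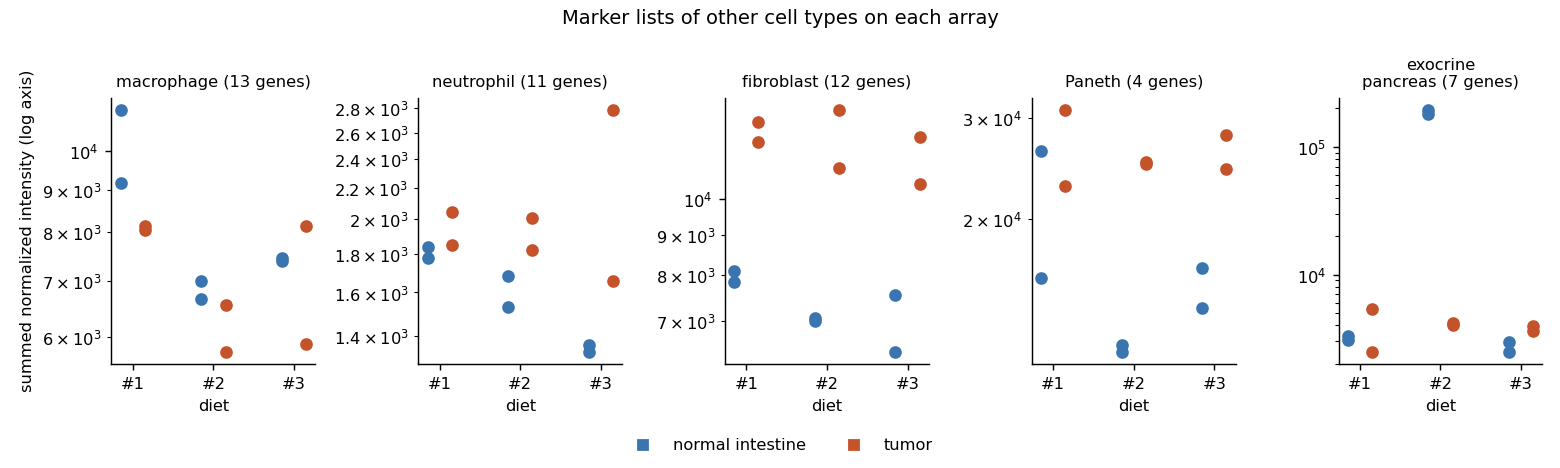
Summed normalized intensity of 5 marker lists on each array, by diet, on log axes that differ between panels, with normal intestine in blue and tumor in red. Fibroblast sums of tumors lie above those of normal intestine, macrophage sums overlap between the tissues, neutrophil sums of tumors lie above those of normal intestine within each diet, and the pancreas sums of the normal arrays of diet #2 reach 179153 to 194077.

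Mmp13, the main interstitial collagenase of the mouse, was dim in normal intestine. Its normal values were 72.8 and 70.3 on diet #1, 97.4 and 136 on diet #2, and 175 and 235 on diet #3. Tumors gave 105 and 283, then 710 and 707, then 837 and 486. No array was at a floor, and after normalization the tumor and normal arrays did not overlap, with 7.20 ± 0.46 in normal intestine and 8.82 ± 0.45 in tumors (log2, SD, n = 6 each). The difference was 1.62 ± 0.26 (SE), or 3.07-fold, with a limma adjusted p of 0.00133. Single pairs ran from 0.42 in Dnmt+/- on diet #1 to 2.49 in Dnmt+/- on diet #2. Without diet #2, whose normal arrays had the lowest normalized levels, the difference was 1.30 (limma adjusted p = 0.0304).

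**Figure D4:**
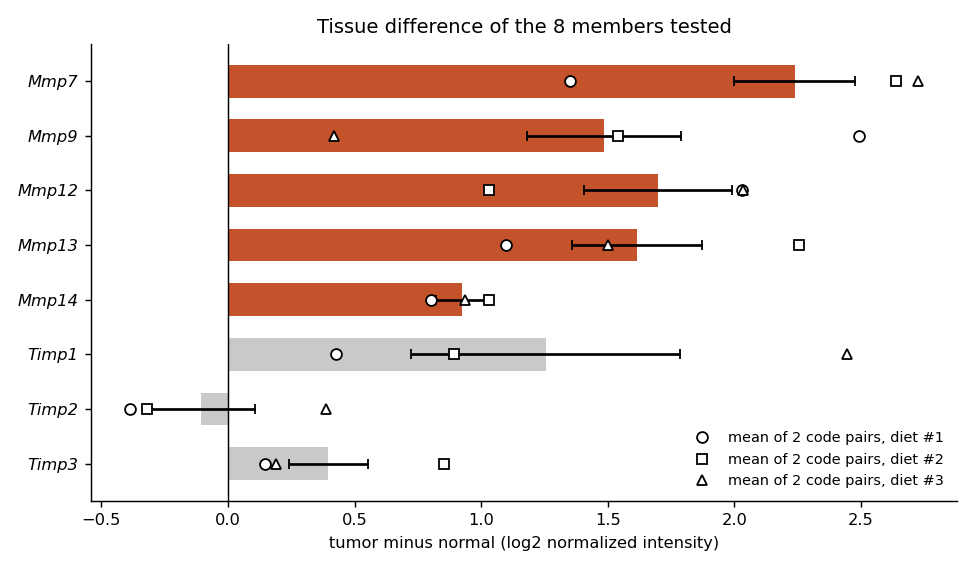
Tumor minus normal difference of the 8 members tested, on the log2 scale of normalized intensity, as bars with SE from the limma fit on 6 tumor and 6 normal arrays. Red bars passed the threshold and grey bars did not, and open symbols are the means of the 2 code pairs within each diet. Mmp7 has the longest bar at 2.24, and the bars of the 3 inhibitors are grey.

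Timp1, an inducible inhibitor of most secreted metalloproteinases, varied widely among normal samples, with 8.37 ± 1.19 there and 9.63 ± 0.55 in tumors (log2, SD, n = 6 each). Normal values were 259 and 216 on diet #1, 166 and 772 on diet #2, and 547 and 112.02 on diet #3. Tumors gave 256 and 433, then 635 and 1037, then 1657 and 1363. On diets #2 and #3 the normal samples of the same diet lay far apart, and tumor exceeded normal in 5 of 6 pairs. The difference was 1.25 ± 0.53 (log2, SE, n = 6 each; 95% confidence interval 0.06 to 2.45), with an unadjusted p of 0.0415 and a limma adjusted p of 0.0981. The value depended on single arrays and settings. It passed with values as deposited (1.43, adjusted p = 0.0437) and without the Dnmt+/+ normal array of diet #2 (1.61, adjusted p = 0.0348), and it was 0.76 without the Dnmt+/+ normal array of diet #3 (adjusted p = 0.149).

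Timp3, the inhibitor that binds to the extracellular matrix, had deposited intensities of 215 and 172 in normal intestine on diet #1, and 267 to 533 on diets #2 and #3. Tumors gave 222 and 225 on diet #1 and 541 to 713 on diets #2 and #3. Tumor was higher in 5 of 6 pairs, but the groups overlapped. The difference was 0.40 ± 0.16 (log2, SE, n = 6 each; 95% confidence interval 0.05 to 0.75), with a limma adjusted p of 0.0776. It passed with values as deposited (0.58, adjusted p = 0.021) and without the Dnmt+/- normal array of diet #1 (0.49, adjusted p = 0.0329). It was smaller without the Dnmt+/- normal array of diet #2 (0.25, adjusted p = 0.11) and without diet #2 (0.17, adjusted p = 0.347).

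Timp2, the inhibitor that works with Mmp14 in activating pro-Mmp2, was higher in tumor in only 1 of 6 pairs after normalization. As deposited, the Dnmt+/+ tumor of diet #2 was also above its normal sample, at 270 against 231. Its brightest probe set ranged from 95.5 to 231 in normal intestine and from 77.7 to 280 in tumors. The difference was -0.11 ± 0.21 (log2, SE, n = 6 each; 95% confidence interval -0.58 to 0.37), with a limma adjusted p of 0.729, and its sign turned with values as deposited (0.094). The 2 other Timp2 probe sets and the second Timp1 probe set stayed at or under 77.1 on every array. Whether the inhibitors differed from the enzymes in their response was not tested.

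The other genes of the chromosome 9 cluster were read from their own probe sets. In RefSeq order on GRCm38.p6, Mmp13, Mmp12, Mmp1b, Mmp3, Mmp1a, Mmp10, Mmp8, Mmp27, Mmp20 and Mmp7 follow one another, and Mmp1b, Mmp1a, Mmp27 and Mmp20 had no probe set named for them. Mmp10, stromelysin 2, was 2.09-fold higher in tumors (1.07 ± 0.15, log2, SE; limma adjusted p = 0.000693), while Mmp8, neutrophil collagenase, stood at the floor on all 12 arrays. Of the genes at the ends of the cluster, Dcun1d5 (0.57) and Tmem123 (0.71) were called higher and Birc2 (-0.54, log2) lower. Position along the chromosome was not tested.

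The other genes of the pathway were taken from lists of related proteases, substrates and regulators. Among all 6400 features 18.2% were called higher in tumors and 16.9% lower, 35.2% in all, the shares to set beside the counts below. Of 21 further family members and inhibitors, 12 were on the array and 4 were tested, and Mmp10 alone was called. Of 22 tested matrix substrates, 13 were higher in tumors and 0 lower, led by the collagens Col1a1 (1.64) and Col5a2 (1.29) and the glycoprotein tenascin C, Tnc (1.21, all log2). Of 13 tested serine, cysteine and aspartic proteases and their receptors and inhibitors, 7 were higher and 2 lower. Plat, tissue plasminogen activator, was 2.82 higher, Plaur, the urokinase receptor, 2.20 higher, and the mast cell tryptase Tpsb2 1.94 higher (log2). Cathepsins S and B, Ctss and Ctsb, were lower, at -0.37 and -0.28. Of 5 tested adamalysins, the membrane sheddases Adam9 (0.87) and Adam10 (0.73) were higher. Of 13 tested transcription factors and cytokines that act on metalloproteinase genes, 4 (30.8%) were higher and 0 lower, against 18.2% and 16.9% of all features. The 4 were led by Ets2 (0.73), Elf3 (0.62) and Ctnnb1 (0.49, all log2). The fourth was the AP-1 subunit Jund (0.43 ± 0.12, log2, SE; limma adjusted p = 0.0221), higher in 6 of 6 code pairs. The AP-1 subunits Fosl2, Jun, Fosb, Fos and Junb had differences of 0.69, 0.35, 0.25, 0.24 and 0.23 (log2) and did not pass, with limma adjusted p from 0.12 to 0.312.

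Stromal and mast cell markers moved with the tissue difference as well. Of 11 tested fibroblast markers 6 were higher in tumors and 0 lower, and the summed list of 12 genes ranged from 6390 to 8101 in normal intestine and from 10426 to 12947 in tumors, without overlap. All 6 tested mast cell markers were higher, with sums of 803 to 1180 in normal intestine and 8467 to 30068 in tumors over 9 genes. Of 7 smooth muscle markers 0 were higher and 1 lower, and of 8 endothelial markers 2 were higher and 1 lower. Among all 6400 features 18.2% were called higher and 16.9% lower, 35.2% in all. The part of these cells in the differences of the metalloproteinases was not tested.

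The called members were also compared with one another and with all named genes across the arrays. With each diet centred on its mean, Pearson correlations between pairs of Mmp7, Mmp9, Mmp12, Mmp13 and Mmp14 ran from 0.70 to 0.92 over 12 arrays. With the tissue means removed as well, they ran from -0.70 to 0.43. Arrays share tissue, diet and normalization, so these are descriptions. The named genes with the pattern most like Mmp7 over the 12 diet-centred arrays were Stmn1, Fam151a and Spink4 (r = 0.99 each). For Mmp14 they were Vasp, Ifitm3 and Rbbp7 (r = 0.98 to 0.99), and for Mmp13 Rpa1, Nop56 and Uck2 (r = 0.97 each). For Mmp12 they were Jagn1, Cxcl5 and Cdk1 (r = 0.96 to 0.97), and for Mmp9 Rpl7, Snhg5 and Krt6a (r = 0.96 to 0.99).

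Genotype was compared in a fit with the code as a random block, since a code has 1 genotype. None of the 8 members tested was called between Dnmt+/- and Dnmt+/+ by limma, and 0 had an unadjusted p under 0.05, against 3 features called (0.0469%, of which 0.0156% higher and 0.0312% lower) and 451 with such a p among all 6400. Timp3 had the smallest p, with a level 0.28 ± 0.14 higher in Dnmt+/- (log2, SE, n = 6 each; limma adjusted p = 0.702). Without 1 array this difference ranged from 0.18, without the Dnmt+/- normal array of diet #1, to 0.42, without that of diet #2. Mmp12 followed at 0.30 ± 0.25 (limma adjusted p = 0.778), and at 0.048 without the outlying Dnmt+/- tumor of diet #3 and 0.13 without the Dnmt+/+ tumor of that diet. The intervals differed widely in what they allow. For Mmp14 the 95% confidence interval ran from -0.25 to 0.17, for Mmp7 from -0.44 to 0.51 and for Timp1 from -1.13 to 1.09 (log2). Mmp7 had normal levels of 10.52 ± 0.61 in Dnmt+/- and 10.42 ± 0.21 in Dnmt+/+, and tumor levels of 12.69 ± 0.49 and 12.72 ± 0.65 (log2, SD, n = 3 each).

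The tumor difference itself was then compared between the genotypes through an interaction term. By limma 0 of 8 members were called, 0 had an unadjusted p under 0.05, and 0% of all features were called, with 139 at that unadjusted p. Mmp12 had a tumor difference of 1.99 in Dnmt+/- and 1.41 in Dnmt+/+, which differed by 0.59 ± 0.60 (log2, SE; 95% confidence interval -0.78 to 1.95). That value was 0.10 without the Dnmt+/- tumor of diet #3 and 0.99 without the Dnmt+/+ tumor of diet #1, the ends of its range without 1 array. The Mmp14 differences of 0.89 and 0.96 differed by -0.07 ± 0.23 (95% confidence interval -0.60 to 0.46). With 3 pairs per genotype these intervals are wide, most of all for Timp1, from -3.25 to 2.28.

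Diet #3 was compared with diet #2, the diets that share a file format. Mmp9 was 2.60-fold higher on diet #3, by 1.38 ± 0.32 (log2, SE, n = 4 each; limma adjusted p = 0.0302), and was the 1 member of 8 called, while 5.69% of all features were called higher and 3.59% lower, 9.28% in all. Its normalized levels were 6.32 and 6.03 in normal intestine and 7.42 and 8.02 in tumors on diet #2. On diet #3 they were 7.90 and 8.32 in normal intestine and 8.60 and 8.47 in tumors. The normal samples of diet #2 were thus the lowest and the 4 arrays of diet #3 lay between 7.90 and 8.60. The call was lost without any 1 of the 4 normal arrays of these diets or without the Dnmt+/- tumor of diet #2, with adjusted p from 0.0573 to 0.105. It was also lost with no replicate block (adjusted p = 0.0672), as deposited (0.114) and with no filter (0.0696). The correlation within codes in the blocked fit was -0.16. The normal arrays of diet #2 are those with the pancreas genes, and neutrophil sums there were 1531 to 1682 against 1335 to 1363 in the normal arrays of diet #3. Macrophage sums were 6666 to 7007 and 7406 to 7449. The part of these signals in the Mmp9 difference was not tested.

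The other members did not pass between the diets. Mmp12 was 0.98 ± 0.31 higher on diet #3 (log2, SE, n = 4 each; limma adjusted p = 0.0807), and 0.61 without the Dnmt+/- tumor of diet #3 (adjusted p = 0.107). Timp3 had a difference of 0.44 ± 0.17 and Mmp7 of 0.55 ± 0.26 (limma adjusted p = 0.141 and 0.212). The other 4 members had differences between -0.27 and 0.35. Among the other gene lists the basement membrane collagen Col4a1 (0.38) and the endothelial coreceptor Eng (0.40) were higher on diet #3 and the smooth muscle actin Actg2 lower (-0.44, log2).

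**Figure D5:**
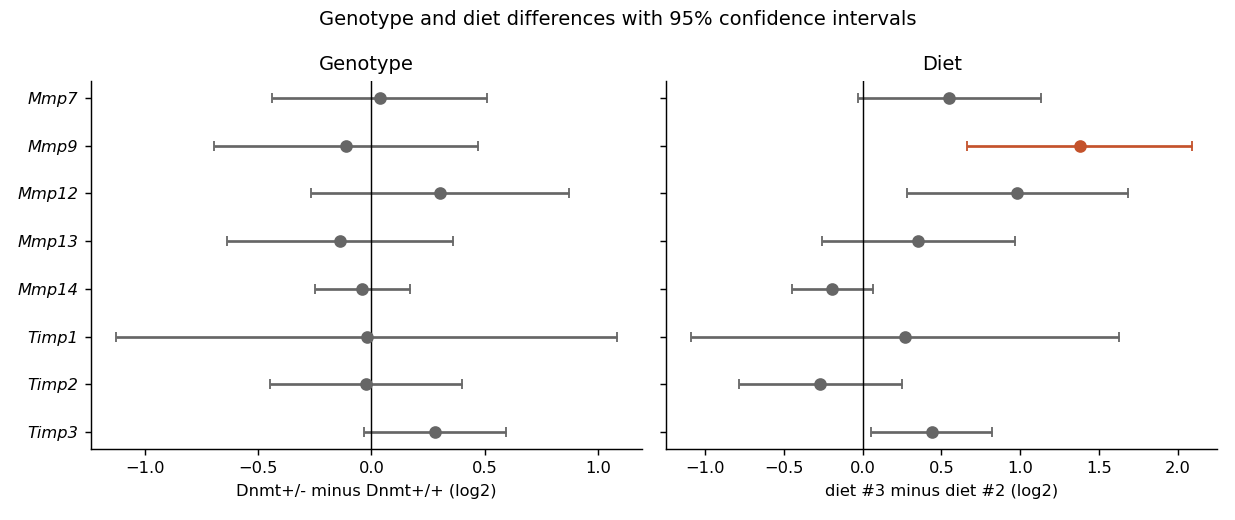
Differences of the 8 members tested between genotypes (left, 6 against 6 arrays) and between diet #3 and diet #2 (right, 4 against 4 arrays), on the log2 scale, as points with 95% confidence intervals from the limma fits. All genotype intervals include 0, and Mmp9, in red at 1.38, is the member that passed the threshold between the diets.

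The tumor difference was not called to differ between diets #2 and #3 for any of the 8 members by limma, against 0.359% of all features. Mmp9 came nearest, with a tumor difference of 1.54 on diet #2 and 0.42 on diet #3, which differed by -1.12 ± 0.33 (log2, SE; unadjusted p = 0.0107, limma adjusted p = 0.298). It was the 1 member with an unadjusted p under 0.05. Timp1 had tumor differences of 0.89 on diet #2 and 2.44 on diet #3, which differed by 1.55 ± 1.22 (limma adjusted p = 0.748), with single pairs from 0.14 to 3.42 within these diets. From the other lists, Klk1, a kallikrein protease, and the pancreas genes Ctrb1, Pnliprp1, Prss2, Cela1 and Cel were called, with differences of 3.33 to 9.06 (log2).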

How the data were processed

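RNA of normal intestine and tumor was measured on 12 single-colour arrays, and the file holds a linear intensity, as deposited by the authors, for each of 12488 probe sets. The sources used here do not give how the authors summarised probes. Per the labels, RNA was extracted with Trizol. Removing 66 control probe sets left 12422, which were quantile normalized, raised to a floor at the 20th percentile (44.8) and put on the log2 scale from the deposited intensities. The dimmest 40% of probe sets by mean level were dropped, and each gene was represented by its brightest probe set, giving 6400 features. In the platform annotation 10833 probe sets had 1 symbol, 396 had several and 1193 had none. Entrez IDs matched 10817 to RefSeq (GRCm38.p6), which changed 0 symbols.

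Tests used limma 3.58.1 in R 4.3.3 on all features, with Benjamini-Hochberg adjustment and a threshold of 0.05. Tissue was fitted with diet and genotype as terms. For genotype, diet and the interactions, the sample code was a random block (duplicateCorrelation), and the correlation within codes was -0.16 for genotype and diet. A correlation below 0 makes calls between codes easier. Normal and tumor arrays of a code correlated by 0.46 to 0.68 in their deviations from the tissue means, and by -0.57 to -0.38 once diet and genotype were removed. Removing diet and genotype takes out spread between codes only, which by itself pushes the latter values below 0. They therefore do not show that the arrays of a code oppose one another. No arrays of a tissue were near copies (highest correlation 0.982).

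The members and gene lists were chosen with earlier results of these data known. All members were named, and of each other list the 3 called genes with the largest tissue difference in each direction, and every called gene in other contrasts. The chromosome 9 neighbours were named by position, and the AP-1 subunits after their values were seen, because of the AP-1 search. For each called member the 3 most correlated genes were named.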

Additional observations from a re-analysis of the deposited data

Results flagged for a closer look

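Among 16 checks for a sample far from its group, made for the 8 members tested in each tissue, 1 was met. Chance alone meets about 1 such check in 20, so 1 among 16 is not unusual. Mmp12 in the Dnmt+/- tumor of diet #3 had a normalized log2 level of 10.27, against 8.46 in the next tumor and 7.47 in the lowest. The gap was 0.647 of the range of the 6 tumors, above Dixon's critical value. The dimmer Mmp12 probe set was also brightest in that tumor, with a deposited intensity of 255. The same array had the highest neutrophil marker sum of the 12, at 2786, and a macrophage sum of 8148, against 1655 and 5895 in the other tumor of that diet. The diet #1 tumors had macrophage sums of 8153 and 8046, with Mmp12 levels of 7.47 and 7.68, the lowest of the 6 tumors. The part of these signals in the Mmp12 value was not tested. Without that array the tissue difference of Mmp12 was 1.43 (log2, limma adjusted p = 0.00146).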

How the results depend on the processing

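The tissue count of 5 members was also 5 with the sample code as a replicate block, with the same 5 genes. It was 7 with values as deposited (Timp1 and Timp3 added), 6 with no filter (Mmp3 added), 4 without diet #2 (Mmp9 lost), 5 to 6 without 1 array, and 2 with the lowest 60% left out, where 4 members remained to be tested. Fitted alone with 4 arrays each, diet #1 gave 0, diet #2 gave 6 and diet #3 gave 2 (Mmp7 and Mmp14), where 0.654%, 19.3% and 9.06% of all features were called. Of all features 1167 were higher and 1084 lower, against 847 and 1551 with median scaling and 1358 and 729 as deposited, where the median of all features was 0.13 (log2). Timp2 turned sign as deposited (0.094), without diet #1 (0.052) and within diet #3 (0.40), and its tissue by genotype difference ranged from -0.0092 to 0.66 without 1 array. The diet count of 1 was 0 as deposited (0.0938% of all features called), with no filter (4.94%) and with no replicate block (4.28%), and 0 with the lowest 60% left out, where Mmp9 was not tested. It was 3 without diet #1 (Mmp7, Mmp9 and Mmp12, with 23.3% of all features called) and 0 to 2 without 1 array. Genotype and both interaction counts stayed at 0 in all alternatives run (23, 23 and 22). On diet #1 the normal values of Mmp3, Mmp9 and Mmp12 stood at the floor of 50, so their folds depend on the floor and the normalization. In the Dnmt+/- pair of that diet Mmp12 had a deposited tumor over normal ratio of 1.38 but a normalized difference of 1.86 (log2). With median scaling the tissue differences of Mmp12 and Mmp9 were 1.21 and 1.06, against 1.70 and 1.49 in the main fit (log2).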
